A study of Ovis aries with 12 samples.

Results

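The cell cycle genes described here are 66 genes of a bovine expression array, chosen by their symbols with earlier results of these data known. They comprise the genes named MCM, CDC or CDK with a number, those named CDKN, the A, B, D and E cyclins, and PCNA, BUB1, AURKA and AURKB, with CDC42 itself left out. They were read by 97 of the 24016 probe sets that are not controls, and each gene is represented by its brightest probe set, over which counts of genes and orders of p run. Of the 66 genes, 52 lay above the median brightness and were tested together with the rest of the array, 12008 probe sets in all, and 14 were dimmer. TOP2A and MKI67 also belong to the choice, but no probe set carried either as its single symbol in the annotation used here.

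The RNA came from the longissimus dorsi, a loin muscle that runs along the spine, and each of 12 lambs gave 1 array. Lambs of 2 genotypes were sampled when 10, 20 or 30 days old, which makes 6 groups of 2 lambs labelled as biological replicates. Callipyge lambs had the genotype +/CLPG, that is, 1 copy of the callipyge allele, which causes an inherited overgrowth of muscle that appears in the weeks after birth. Normal lambs were wild-type +/+, and lambs of both genotypes had nursed their dams until shortly before death. The comparisons ask which genes differ between the genotypes as the overgrowth sets in, and which differ with age.

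A cell that divides first copies its DNA and then separates the copies. The MCM proteins form the helicase that opens DNA for copying, CDC6 loads it, CDC7 and CDC45 help to start it, and PCNA is the clamp that holds the polymerase on the template. Cyclins switch on cyclin-dependent kinases (CDKs) at each step, while the CDKN proteins inhibit these kinases. The D cyclins act with CDK4, the E cyclins with CDK2, the A cyclins with CDK2 and CDK1, and the B cyclins with CDK1 up to mitosis. In mitosis AURKA and AURKB act on the spindle and the chromosomes, BUB1 delays separation, and the anaphase-promoting complex, with the subunits CDC16, CDC23 and CDC26 and the activator CDC20, ends it. Nuclei inside muscle fibres do not divide. In growing muscle the satellite cells between the fibres divide and fuse with them, and cells of vessels, matrix and blood can divide too. Whole muscle was measured, so that fewer dividing cells and less RNA per cell cannot be told apart.

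By role, 34 of the 66 genes act in the cell cycle: 9 in DNA replication, 8 cyclins, 5 cell cycle CDKs, 8 genes of mitosis and 4 CDK inhibitors. The other 32 share the naming but are best known for other work, and 30 of them were tested, against 22 of the 34. They include CDK9, CDK12 and CDK13, kinases of transcription, CDC5L and CDC40 of the spliceosome, CDC37, a partner of the chaperone HSP90, and the CDC42EP and CDC42SE proteins, which bind the small GTPase CDC42.

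The arrays' trimmed mean signal ran from 55.7 to 105.7 before they were scaled to 79.2, and precision is limited by how few arrays there are. All levels below are log2 of the scaled intensity plus 16, where a signal of 0 reads 4, and folds on this scale understate the change of dim genes. DLK1, a gene of the callipyge locus, separated the genotypes as labelled: it ran from 10.45 to 11.17 (median 10.97) in callipyge lambs and from 7.67 to 9.05 (median 8.54) in normal lambs. All 8 muscle fibre markers found were well measured, with CKM between 13.26 and 13.66. Results that rest on the replicate 2 lambs at 30 days, 1 of each genotype, are given with and without both. The labels do not set this pair apart, and it was looked at with earlier results of these data known. With all lambs 220 probe sets of the array were called between 30 and 10 days. Calls became fewer without both of these lambs, and also without any 1 of the 10 day lambs. Such fits hold 1 lamb in a group and so have less power.

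The pooled SD between replicate lambs had a median of 0.24 over the 52 tested genes, and 0.24 over all 12008 probe sets tested. It ran from 0.09 for CCND2, a D cyclin, to 0.90 for CDK20, a lesser-known kinase. The tested replication genes had mean levels between 5.33 and 7.85, the cyclins between 5.39 and 7.81, the cell cycle CDKs between 5.35 and 7.22, the mitosis genes between 5.30 and 6.61, and the inhibitors between 5.76 and 10.00. The 14 dimmer genes had means between 4.38 and 5.08. They were CDC6, CDC7 and CDC45 of replication, the cyclins CCNA2, CCNB1, CCNB2 and CCND1, the kinases CDK1 and CDK3, CDC25C and BUB1 of mitosis, the inhibitor CDKN2B, and the CDC42 partners CDC42BPA and CDC42BPG.

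**Figure D1:**
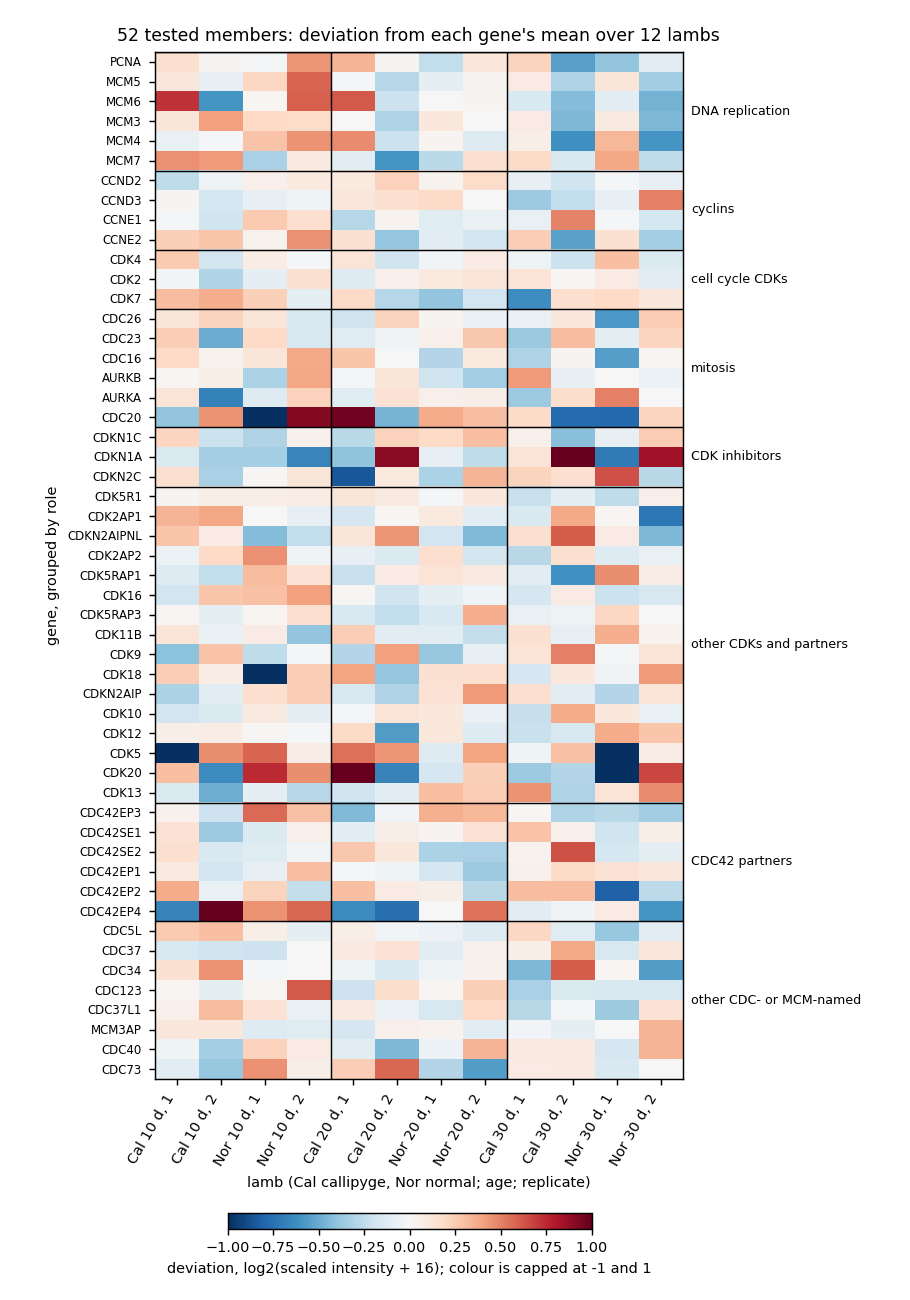
Each row is 1 of the 52 tested genes and each column 1 of the 12 lambs, ordered by age; the colour is the log2 level minus that gene's mean, capped at -1 and 1. The replicate 2 lambs at 30 days (Cal 30 d, 2 and Nor 30 d, 2) are low for most replication genes and high for CDKN1A, at 8.44 and 8.25.

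No cell cycle gene passed the test between callipyge and normal muscle. Averaged over the ages, 0 of the 52 tested genes had a limma adjusted p under 0.05 after Benjamini-Hochberg adjustment over the array, where 0.883% of all tested probe sets did. At an unadjusted p under 0.05 there were 6 of 52, against a background of 11.8%. All 6 belonged to the 30 tested genes of other processes, and none to the 22 with a cell cycle role, whose smallest adjusted p was 0.632. Ordinary least squares also called 0, with 7 at an unadjusted p under 0.05. The median difference was -0.01 over the 52 genes and -0.01 over all tested probe sets, with 22 genes above 0 and 30 below.

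The intervals show how large a difference the data leave room for, for 1 gene at a time and not for all genes jointly. For all 52 genes the 95% interval of the genotype difference lay within a 2-fold change in either direction. The highest upper end was 1.99-fold. With a pseudocount of 1 in place of 16, 47 of the 51 then tested did so, and with ordinary least squares 47 of 52.

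In the replication genes PCNA ran from 7.31 to 8.19 (median 7.95) in callipyge lambs and from 7.46 to 8.29 (median 7.78) in normal lambs. These ranges overlap nearly whole, and the difference was 0.08 (95% interval -0.26 to 0.41, limma adjusted p = 0.905). Without the callipyge 30 day replicate 1 lamb, and without scaling, it was -0.05 and -0.13. The MCM genes differed by -0.16 for MCM5, -0.12 for MCM4, -0.04 for MCM3, -0.02 for MCM6 and 0.07 for MCM7.

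The tested cyclins and their kinases lay close to 0 between the genotypes. All 4 tested cyclins, CCND2, CCND3, CCNE1 and CCNE2, had differences between -0.16 and -0.003, and CDK2, CDK4 and CDK7, the last of which activates other CDKs, lay between -0.09 and 0.05. CCND3 ran from 6.17 to 6.70 in callipyge lambs and from 6.45 to 7.03 in normal lambs. Its difference was -0.16, and at 30 days alone -0.52 (limma adjusted p = 0.639). The dim cyclins and kinases were read in a limma fit of all probe sets, where none was called. CCNA2 stood at 0.34, CCNB2 at 0.24, CCND1 at 0.21 and CCNB1 at -0.01, with CDK1 at 0.20 and CDK3 at -0.23. Of the 14 dim genes 10 lay above 0, against 48.8% of all dim probe sets.

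The mitosis genes were mixed between the genotypes, with 3 of 6 above 0. AURKA ran from 5.39 to 6.24 (median 6.06) in callipyge lambs and from 5.93 to 6.57 (median 6.11) in normal lambs, a difference of -0.24 (limma adjusted p = 0.653). AURKB ran from 6.20 to 6.70 (median 6.32) and from 5.94 to 6.67 (median 6.15), a difference of 0.17 (adjusted p = 0.711). Both pairs of ranges overlap. A second, dim probe set of each gene had the opposite sign in the limma fit of all probe sets. It was 0.27 for AURKA (adjusted p = 0.560) and -0.04 for AURKB (0.949). BUB1 was dim, between 4.14 and 4.98 over all lambs, and the difference of -0.10 had an adjusted p of 0.910 in a limma fit of all probe sets. CDC20 spread the most of this group, from 4.31 to 6.26.

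Of the inhibitors, CDKN1A, which encodes p21 and halts the cycle after stress and during differentiation, ran from 7.01 to 8.44 (median 7.40) in callipyge lambs and from 6.70 to 8.25 (median 7.11) in normal lambs. The ranges overlap, and the difference was 0.40 ± 0.27 (SE, limma adjusted p = 0.632). CDKN1C, which encodes p57 and is imprinted, lay between 9.58 and 10.30 in all lambs with a difference of -0.14, and CDKN2C between 4.91 and 6.41 with -0.17.

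Among the 52 brightest probe sets the smallest p between the genotypes belonged to CDKN2AIPNL, named for its likeness to CDKN2AIP, a binding partner of the tumour suppressor ARF. Its levels in callipyge lambs were 8.59 and 8.39 at 10 days, 8.43 and 8.75 at 20 days, and 8.47 and 8.92 at 30 days. In normal lambs they were 7.88 and 8.06, 8.12 and 7.88, and 8.39 and 7.87. Each callipyge lamb lay above both normal lambs of its age, and the genotypes did not overlap, if barely, since the lowest callipyge and the highest normal lamb both read 8.39 when rounded. It was the only one of the 52 whose callipyge levels were all higher, against 0.683% of all tested probe sets, and 0 of the 52 were all lower, against 0.35%.

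The difference for CDKN2AIPNL was 0.56 ± 0.13 (SE, 1.47-fold, 95% interval 0.27 to 0.85), with a limma adjusted p of 0.0853. Without the normal 30 day replicate 1 lamb it was 0.65 with an adjusted p of 0.0443. A further probe set of the gene gave 0.16 (adjusted p = 0.711) and the dimmest one gave -0.07 in the fit of all probe sets. Of the 3, only the brightest gave a difference of this size.

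Of the genes with higher means in callipyge muscle, CDC42EP2, CDC42SE2, CDC5L and CDK2AP1 came next by p, and none passed. CDC42EP2, an effector of CDC42 that shapes the actin cytoskeleton, ran from 6.73 to 7.18 (median 7.11) against 6.0 to 7.03 (median 6.56) in normal lambs. The difference was 0.43 ± 0.15 (limma adjusted p = 0.246), with 5 of 6 callipyge lambs above both normals of their age. Its other probe set gave 0.90 with an adjusted p of 0.0634, a smaller p than that of CDKN2AIPNL, so that both probe sets lay above 0. Of the 6 tested CDC42 partners 4 lay above 0 and 2, CDC42EP3 and CDC42EP4, below. CDC42SE2, a small effector of CDC42, ran from 7.78 to 8.57 (median 8.07) against 7.61 to 7.90 (median 7.78), a difference of 0.36 (adjusted p = 0.270). CDC5L, a spliceosome protein, ran from 9.08 to 9.50 (median 9.33) against 8.82 to 9.26 (median 9.10). That was 0.23 (adjusted p = 0.403), and 0.07 at its other probe set. CDK2AP1, a subunit of the NuRD chromatin complex, ran from 9.21 to 9.76 (median 9.56) against 8.65 to 9.48 (median 9.34), a difference of 0.27 (adjusted p = 0.490).

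On the other side, CDK5RAP1, which modifies mitochondrial transfer RNA, ran from 7.07 to 7.76 (median 7.50) in callipyge lambs and from 7.75 to 8.14 (median 7.82) in normal lambs. Each callipyge lamb lay below both normal lambs of its age, although the ranges over all ages touch. The difference was -0.41 ± 0.13 (95% interval -0.69 to -0.13, limma adjusted p = 0.207), and the other probe sets of the gene gave -0.12 and -0.24. CDC42EP3, a further CDC42 effector, ran from 8.20 to 8.68 (median 8.52) against 8.29 to 9.20 (median 8.95), a difference of -0.31 (adjusted p = 0.311). CDKN2AIP ran from 5.79 to 6.27 (median 5.98) against 5.82 to 6.54 (median 6.27), a difference of -0.28 (adjusted p = 0.425). CDC40 stood at -0.25 (adjusted p = 0.502), with ranges of 5.90 to 6.44 and 6.19 to 6.69 that overlap. CDK13 stood at -0.27 (adjusted p = 0.537), with ranges of 5.24 to 6.18 and 5.45 to 6.21, and its other probe sets gave 0.16 and 0.05. CDK5RAP3, which takes part in attaching the ubiquitin-like protein UFM1, stood at -0.20 (adjusted p = 0.571), with ranges of 6.39 to 6.66 and 6.49 to 7.0.

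The other tested genes of other processes lay between -0.35 for CDC42EP4 and 0.21 for CDK9. Among them were CDK12 at -0.21, CDC123 at -0.19, CDK20 at -0.13, CDK2AP2, a relative of CDK2AP1, at -0.07, CDK16 at -0.06, CDK10 at -0.03 and CDK5R1 at -0.01. CDC42SE1 and CDC42EP1 both stood at 0.02, CDC37L1, a relative of CDC37, at 0.03, CDK11B and CDK18 at 0.09 and CDK5 at 0.10. CDC37 stood at 0.11, CDC73 at 0.17 and CDC34, a ubiquitin-conjugating enzyme, at 0.18, while MCM3AP, of messenger RNA export, lay next to 0.

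**Figure D2:**
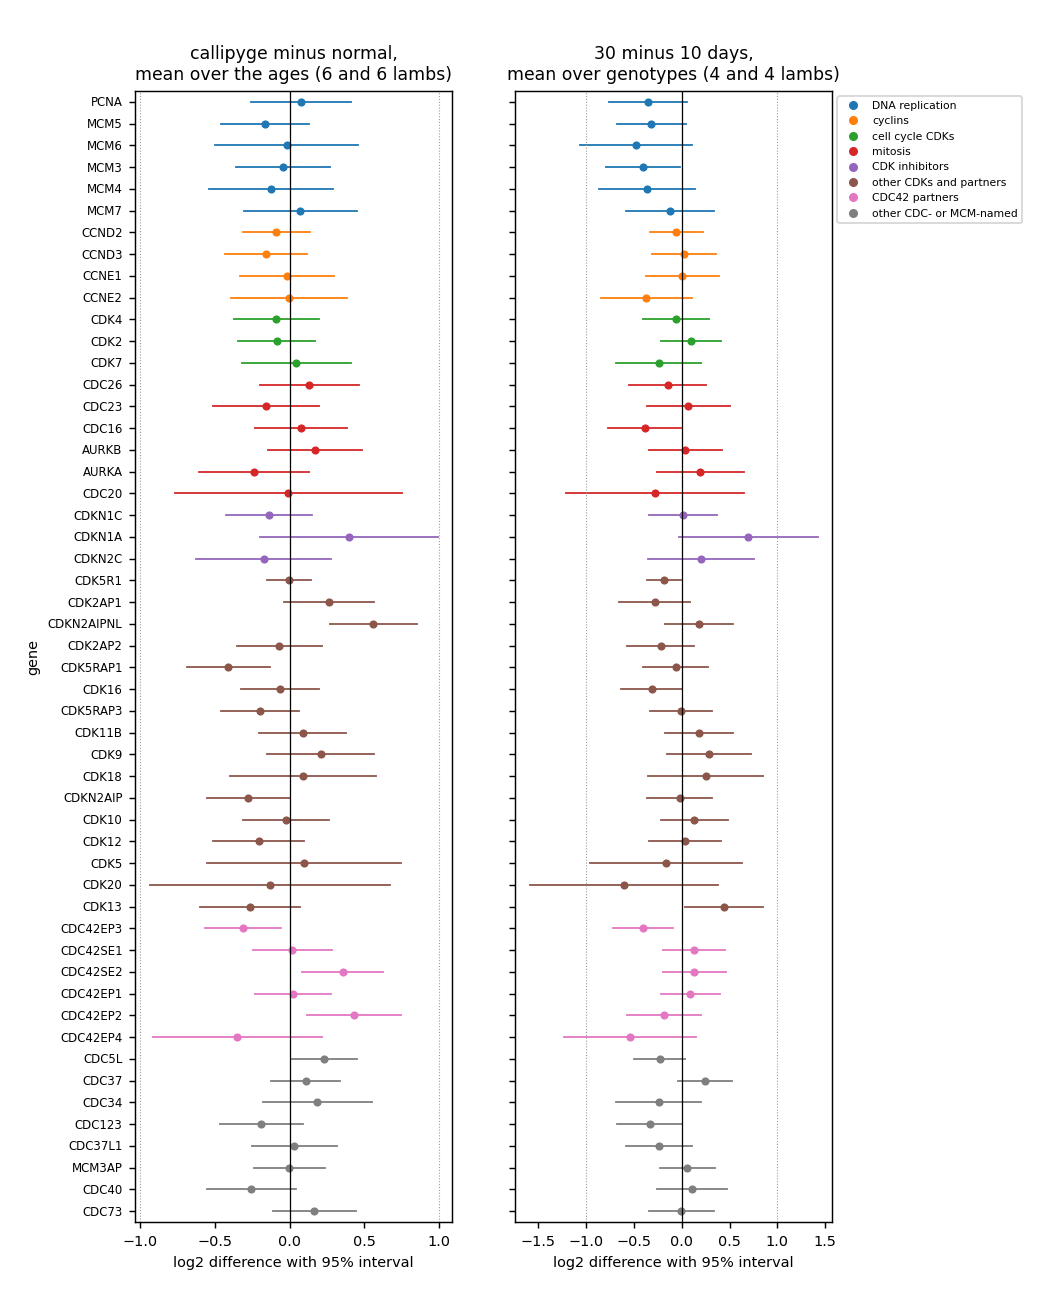
Points are the log2 differences of the 52 tested genes and bars their 95% intervals, for callipyge minus normal (left, 6 and 6 lambs) and 30 minus 10 days (right, 4 and 4 lambs); colours give the role and dotted lines mark a 2-fold change. All 52 intervals lie inside the dotted lines on the left and 47 on the right, where all 6 replication genes have points below 0.

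At single ages, with 2 lambs against 2, no member passed either. At 10 days 0 of 52 were called by limma where 0.0666% of all tested probe sets were, and 3 had an unadjusted p under 0.05 against a background of 8.82%. At 20 days 0 were called against 0.0333%, with 5 at an unadjusted p under 0.05 against 6.15%. At 30 days 0 were called against 0.05%, with 5 against 7.6%. The intervals are wider here and lay within a 2-fold change for 42, 40 and 41 of the 52 genes.

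CDC73, a subunit of the PAF1 complex that travels with RNA polymerase II, had the smallest p at 20 days. The 2 callipyge lambs read 6.48 and 6.81 at 20 days against 5.94 and 5.67 in normal lambs, a difference of 0.83 ± 0.22 (limma adjusted p = 0.490). At 10 days the order was the other way, with 6.12 and 5.85 against 6.69 and 6.29, a difference of -0.50 (adjusted p = 0.546), and at 30 days the difference was 0.16. Its interaction of genotype and age had an unadjusted p of 0.00352 and an adjusted p of 0.952.

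CDC42EP3 stood at -0.51 at 10 days (adjusted p = 0.498), -0.58 at 20 days (0.676) and 0.16 at 30 days, with an interaction adjusted p of 0.992. CDKN2AIPNL kept to 0.52, 0.59 and 0.57 at the 3 ages (adjusted p = 0.546, 0.743 and 0.627). At 30 days CDC42EP2 stood at 0.84 ± 0.25 (adjusted p = 0.446) and CDK5RAP1 at -0.63 (0.544). CDK5, a kinase best known from neurons, followed CDC73 and CDC42EP3 in the interaction (adjusted p = 0.992). Over the 52 genes the interaction gave 0 calls, as it did over the whole array (0%), with 2 at an unadjusted p under 0.05 against 4.75%.

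**Figure D3:**
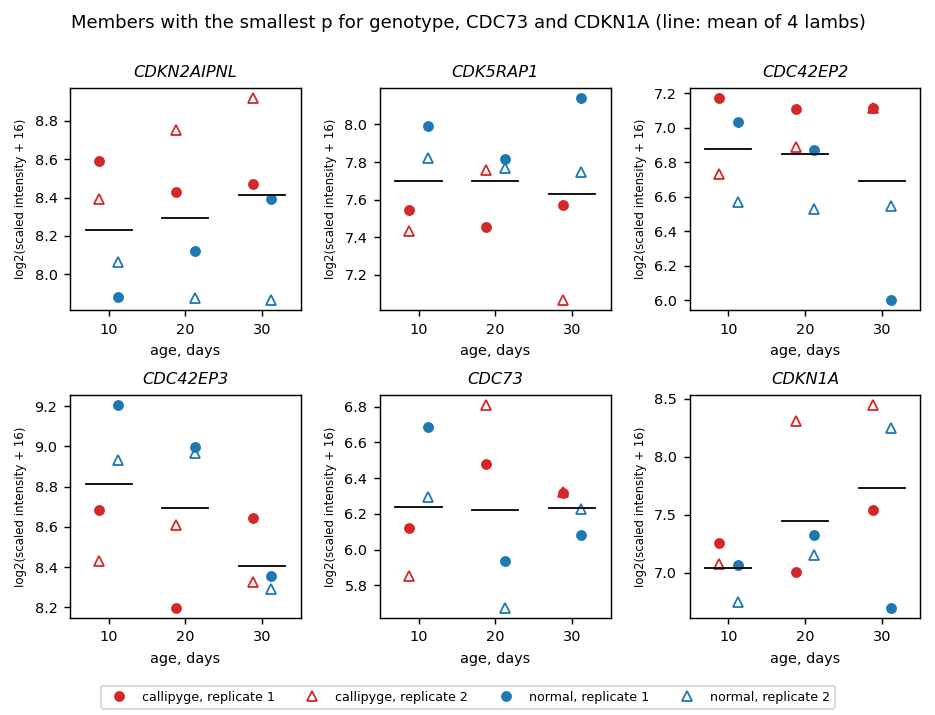
Log2 levels in each lamb against age for 6 genes; red is callipyge, blue normal, filled symbols replicate 1 and open ones replicate 2, and lines are means of the 4 lambs of an age. CDKN2AIPNL is higher and CDK5RAP1 lower in each callipyge lamb than in both normal lambs of its age, callipyge lambs lie below normal lambs for CDC73 at 10 days and above at 20 days, and CDKN1A is highest in 3 replicate 2 lambs (8.44, 8.31 and 8.25).

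With age, again, no cell cycle gene passed the test. The 6 tested DNA replication genes, and the 4 cyclins too dim to be tested with them, had lower means at 30 than at 10 days. Of the 4 tested cyclins 2 lay below 0 and 2 above. Between 30 and 10 days 0 of the 52 tested genes had a limma adjusted p under 0.05, where 1.83% of all tested probe sets did. At an unadjusted p under 0.05 there were 5 of 52, against 16.4%, and ordinary least squares gave 0 calls and 4. Differences lay below 0 for 30 of the 52, against 49.6% of all tested probe sets, with a median of -0.06 against 0.00. For 47 of the 52 the 95% interval lay within a 2-fold change, and the other 5 were CDKN1A, MCM6, CDC20, CDK20 and CDC42EP4. With a pseudocount of 1, 39 of 51 did so.

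All 6 tested replication genes had lower mean levels at 30 than at 10 days, and none passed. MCM3 read 6.20 and 6.49 in callipyge and 6.28 and 6.26 in normal lambs at 10 days, and 6.16 and 5.63, and 6.17 and 5.63, at 30 days. All 4 lambs at 30 days lay below all 4 at 10 days, the lowest being the replicate 2 lambs. The difference was -0.41 ± 0.18 (95% interval -0.80 to -0.02, limma adjusted p = 0.276). PCNA read 8.01, 7.88, 7.83 and 8.29 at 10 days and 8.08, 7.31, 7.46 and 7.74 at 30 days, in the same order. Those lambs overlap, at a difference of -0.36 (adjusted p = 0.382).

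MCM6 stood at -0.48 (limma adjusted p = 0.416), MCM4 at -0.36 (0.485), MCM5 at -0.32 (0.376) and MCM7 at -0.12 (0.833), and the median of the 6 was -0.36. MCM6 ran from 6.02 to 7.34 at 10 days and from 6.14 to 6.51 at 30 days, so that the ages overlap. From 10 to 20 days all 6 also had differences below 0, with a median of -0.20. Both comparisons share the 10 day lambs.

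Much of this lay in the replicate 2 lambs of 30 days. They were the lowest 2 of the 12 lambs for MCM3, MCM4 and MCM5, which is 3 of the 52 tested genes, against 3.01% of all tested probe sets. For 0 of the 52 were they the highest 2, against 3.07%. Such counts, here and below, were not made for other pairs of lambs. For MCM3, MCM4 and MCM5, leaving out the lowest 2 lambs must make the fall at 30 days smaller. Without both, 4 of the 6 replication genes lay below 0 and the median was -0.12, with PCNA at -0.23, MCM3 at -0.14, MCM5 at -0.10, MCM6 at -0.31, MCM4 at 0.04 and MCM7 at 0.13.

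**Figure D4:**
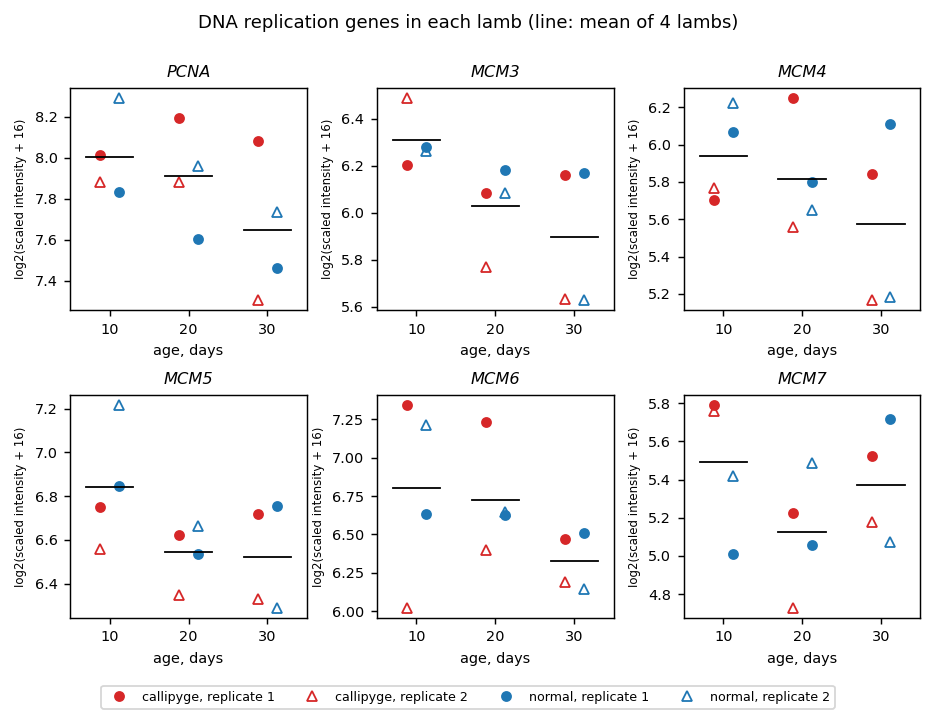
Log2 levels of the 6 tested DNA replication genes in each lamb against age in days; red is callipyge, blue normal, filled symbols replicate 1 and open ones replicate 2, and lines are means of 4 lambs. All 6 means are lower at 30 than at 10 days, and for MCM3, MCM4 and MCM5 the open symbols at 30 days are the lowest 2 of the 12 lambs.

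CDKN1A had the opposite pattern. It read 7.26, 7.08, 7.07 and 6.75 at 10 days (callipyge replicates 1 and 2, then normal 1 and 2), 7.01, 8.31, 7.33 and 7.16 at 20 days, and 7.54, 8.44, 6.70 and 8.25 at 30 days. The 3 lambs above 8 were callipyge 20 day replicate 2 and the 2 replicate 2 lambs of 30 days, while normal 30 day replicate 1 was the lowest of the 12. Between 30 and 10 days the difference was 0.69 ± 0.34 (1.62-fold, 95% interval -0.03 to 1.42, limma adjusted p = 0.329), and without both replicate 2 lambs it was 0.08.

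Those 3 lambs were also the 3 with the lowest replication genes, a match that was noticed after their values were seen. The mean deviation of the 6 replication genes from their own means was -0.27, -0.42 and -0.37 in them, in the same order. In the other 9 lambs it ran from -0.08 to 0.39. The match runs over lambs of both genotypes and of 2 ages. The share of all probe sets that are highest in the same 3 lambs was not counted. A link between CDKN1A and the replication genes was not tested.

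Among the mitosis genes CDC16 stood lower at 30 days. It read 6.69, 6.52, 6.61 and 6.87 at 10 days and 6.18, 6.51, 5.93 and 6.51 at 30 days, callipyge before normal. All 4 older lambs lay below all 4 younger ones, by little in the replicate 2 lambs, and the difference was -0.39 ± 0.17 (limma adjusted p = 0.286), or -0.62 without both replicate 2 lambs of 30 days. The other subunits of its complex, CDC23 at 0.07 and CDC26 at -0.15, lay nearer to 0. AURKA stood at 0.19 (adjusted p = 0.718) and AURKB at 0.04 (0.947). Both turned sign when single lambs were left out: AURKA was -0.01 without callipyge 10 day replicate 2, and AURKB was -0.09 with callipyge 30 day replicate 1 omitted and -0.14 when normal 10 day replicate 1 was. The second, dim probe sets stood at -0.28 for AURKA (adjusted p = 0.531) and 0.14 for AURKB (0.754) in the limma fit of all probe sets.

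Of the tested cyclins CCNE2 stood at -0.37 (limma adjusted p = 0.440), or -0.05 without both replicate 2 lambs of 30 days. CCND2 stood at -0.06, CCND3 at 0.02 and CCNE1 at 0.00. CDK2, CDK4 and CDK7 stood at 0.10, -0.06 and -0.24. The remaining inhibitors lay at 0.02 for CDKN1C and 0.20 for CDKN2C.

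The dim cyclins stood further below 0 at 30 against 10 days than the tested ones, in a limma fit with no filter on brightness. Of all 24016 probe sets 0.362% were called there between 30 and 10 days, and 0.196% between the genotypes. None of the 14 dim genes was called in either, with a smallest adjusted p of 0.149. Of the 14, 11 lay below 0 at 30 days against 54.7% of all dim probe sets, and 5 had an unadjusted p under 0.05 in that direction, against 4.27%. The 5 were CCND1, CCNA2, CCNB1, CCNB2 and CDC7.

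CCND1, a D cyclin through which growth signals start the cycle, read 5.62, 5.50, 5.49 and 4.71 at 10 days and 4.53, 4.43, 4.48 and 4.38 at 30 days, callipyge before normal. All 4 lambs at 30 days lay below all 4 at 10 days, replicate 1 lambs included. The share of dim probe sets for which this holds was not counted. The difference was -0.88 ± 0.23 (limma adjusted p = 0.149), and -0.82 without both replicate 2 lambs of 30 days (adjusted p = 0.463). All 4 readings at 30 days lie near 4, the reading of no signal, so leaving 2 of them out can hardly move this difference.

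CCNA2, the cyclin of DNA copying and early mitosis, read 5.09, 4.81, 4.77 and 4.46 at 10 days and 4.54, 4.09, 4.19 and 4.06 at 30 days. Of the older lambs 3 lay below all younger ones, and callipyge replicate 1 did not. The difference was -0.56 ± 0.16 (adjusted p = 0.170), and -0.42 without both replicate 2 lambs. Between the genotypes CCNA2 stood at 0.34 (unadjusted p = 0.021, adjusted p = 0.441), the only one of the 14 with an unadjusted p under 0.05 in callipyge muscle, against 3.11% of dim probe sets.

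The mitotic B cyclins depended more on those lambs. CCNB2 read 5.58, 5.18, 5.06 and 5.65 at 10 days and 5.13, 4.17, 4.84 and 4.14 at 30 days, a difference of -0.80 ± 0.28 (limma adjusted p = 0.284). CCNB1 read 5.14, 4.85, 4.92 and 5.77 at 10 days and 4.64, 4.16, 5.14 and 4.10 at 30 days, a difference of -0.66 ± 0.27 (adjusted p = 0.381). In both the replicate 2 lambs lay near 4, the reading of no signal. Without them the differences were -0.38 and -0.28.

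CDC7, the kinase that starts replication, read 4.48, 4.62, 4.52 and 4.78 at 10 days and 4.38, 4.16, 4.40 and 4.11 at 30 days. The ages did not overlap, but the share of dim probe sets without overlap was not counted. These readings run from 4.11 to 4.78, near 4, the reading of no signal. The difference was -0.34 ± 0.13 (limma adjusted p = 0.353), or -0.21 without both replicate 2 lambs. CDC6 stood at -0.34, BUB1 at -0.23 (-0.48 without those lambs), CDK1 at -0.16, CDC45 at -0.11, CDK3 at -0.12 and CDC25C at -0.08, and the inhibitor CDKN2B at 0.37 (0.13 without them). Of the 12 dim genes with a cell cycle role, 11 lay below 0. For 5 of these 12, CCNB1, CCNB2, CCND1, CCNA2 and CDC7, the replicate 2 lambs of 30 days were the lowest 2 of all lambs, against 1.79% of dim probe sets.

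**Figure D5:**
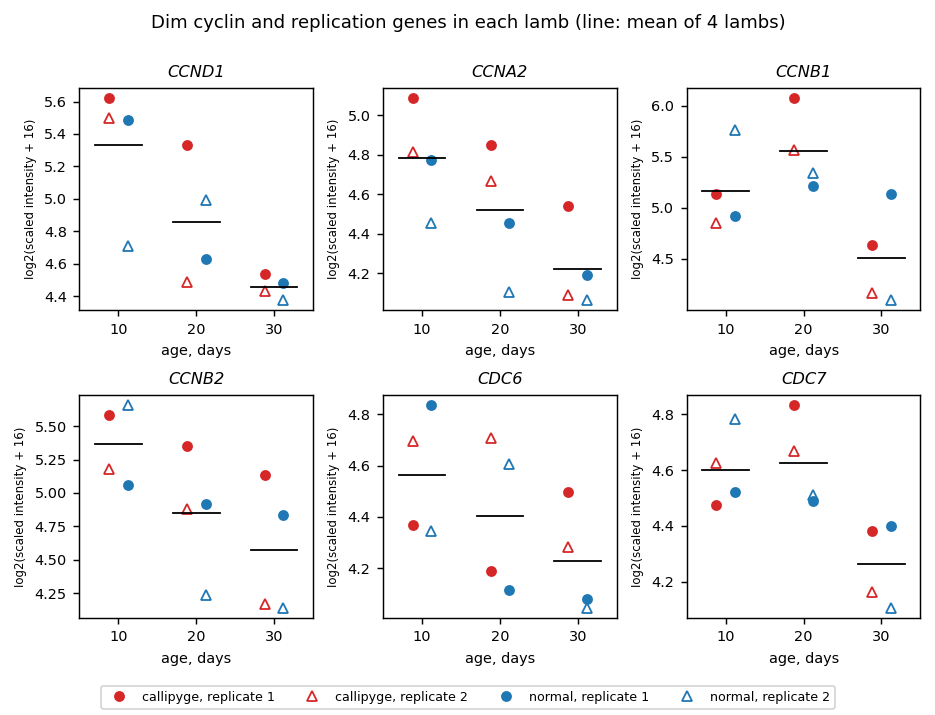
Log2 levels of 6 dim genes in each lamb against age in days; red is callipyge, blue normal, filled symbols replicate 1 and open ones replicate 2, and lines are means of 4 lambs. A signal of 0 reads 4, so these genes lie near the bottom of the scale. For CCND1 and CDC7 all 4 lambs at 30 days lie below all 4 at 10 days. The share of dim probe sets for which this holds was not counted.

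Among the 52 tested genes, which leave out the dim cyclins, a gene named for another process, CDC42EP3, had the smallest p between 30 and 10 days. CDC42EP3 read 8.68, 8.43, 9.20 and 8.93 at 10 days and 8.65, 8.33, 8.36 and 8.29 at 30 days, callipyge before normal, so that most of the difference lay in the normal lambs. It was -0.41 ± 0.14 (limma adjusted p = 0.176). The change in callipyge minus that in normal lambs was 0.67 (adjusted p = 0.928). CDC123, which helps to assemble the translation factor eIF2, read 8.21, 8.10, 8.21 and 8.80 at 10 days and 7.86, 8.05, 8.03 and 8.03 at 30 days. The ages did not overlap, and the difference was -0.33 (adjusted p = 0.315). CDK16, a lesser-known kinase, read 6.76, 7.23, 7.25 and 7.37 at 10 days and 6.79, 7.04, 6.74 and 6.79 at 30 days, a difference of -0.31 (adjusted p = 0.313), and its other probe set gave -0.33.

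CDK5R1, the activator of CDK5 known from neurons, stood at -0.19 ± 0.08 (limma adjusted p = 0.286), at -0.29 without both replicate 2 lambs of 30 days, and at 0.12 without scaling. It read 13.17, 13.19, 13.20 and 13.21 at 10 days and 12.91, 13.04, 12.88 and 13.19 at 30 days. Its probe sets disagree on its level: 3 had means from 12.80 to 13.14 and the fourth had 4.14, near the floor. The annotation of the bright ones may be wrong, so these values are those of probe sets annotated as CDK5R1 and may not be the gene's. The bright ones all lay below 0 with age, at -0.19, -0.15 and -0.20, and the dim one at 0.02.

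In the other direction CDK13 read 5.58, 5.24, 5.64 and 5.45 at 10 days and 6.18, 5.42, 5.87 and 6.21 at 30 days, a difference of 0.44 ± 0.19 (limma adjusted p = 0.268). The ages overlap through callipyge replicate 2, and the other probe sets of the gene gave -0.17 and 0.01. CDC37 read 8.51, 8.48, 8.46 and 8.67 at 10 days and 8.74, 9.06, 8.52 and 8.79 at 30 days, a difference of 0.24 (adjusted p = 0.393). CDK9 stood at 0.28 (adjusted p = 0.538), CDK11B, a kinase of transcription and splicing, at 0.18 (0.644) and CDKN2AIPNL at 0.18 (0.652). The dimmest probe set of CDKN2AIPNL, which does not represent the gene here, stood at -0.81 with an adjusted p of 0.0497 in the fit with no filter, while the middle one stood at -0.04.

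The remaining genes of other processes stood between -0.60 for CDK20 and 0.25 for CDK18 with age. CDK2AP1, CDC34, CDC37L1, CDC5L and CDK2AP2 lay between -0.28 and -0.22. CDC42EP2 stood at -0.18, and CDC42SE1 and CDC42SE2 both stood at 0.13. CDC42EP4 stood at -0.54 (limma adjusted p = 0.438) and ran from 4.66 to 6.48 at 10 days and from 4.73 to 5.40 at 30 days, so that the ages overlap.

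Of the 52 genes 3 had all 30 day lambs below all 10 day lambs, MCM3, CDC16 and CDC123, against 4.31% of all tested probe sets. In the other direction there were 0, against 3.53%. From 10 to 20 days limma called 0 members and 0% of the array, with 0 members at an unadjusted p under 0.05 against 8.42%. The smallest p values belonged to CDK16 at -0.28 (adjusted p = 0.667), CDC42EP4 at -0.59 (0.677) and CDK7 at -0.38 (0.677). Only MCM3 had 20 day lambs all below the 10 day lambs, against 2.6% of probe sets, and 0 were all above, against 2.17%.

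From 20 to 30 days limma called 0 of the 52 against 0.00833%, with 1 at an unadjusted p under 0.05, CDK5R1, against 8.99%. CDK5R1 stood at -0.20 (adjusted p = 0.482), CDC42EP3 at -0.29 (0.605) and CDC42EP1 at 0.27 (0.626). CCND2 was lower in all 30 day than in all 20 day lambs, from 7.61 to 7.79 against 7.84 to 8.04, the 1 member of its kind against 2.73% of probe sets. CDC42EP1 was higher in all, the 1 member against 2.24%. Over all 3 ages together 0 of the 52 passed limma's F test, against 0.849%, and 1, CDC42EP3, had an unadjusted p under 0.05, against 13.6%.

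A wider list of 134 genes of the same machinery outside the choice, such as E2F factors, origin proteins, polymerases and kinetochore genes, was set beside them. Of these, 97 were on the array and 64 were tested. Between the genotypes 0 of the 64 passed limma's test, against 0.883% of all tested probe sets, and 7 had an unadjusted p under 0.05, against 11.8%, with a median difference of 0.02. MYC, a transcription factor that drives growth and division, had the smallest adjusted p, 0.0738, at -0.64 ± 0.15. It ran from 7.26 to 7.78 in callipyge and from 7.83 to 8.78 in normal lambs. The callipyge levels were thus all lower, as for 0.35% of all tested probe sets. ANAPC10, of the anaphase-promoting complex, stood at 0.35 (adjusted p = 0.237) and E2F6, a repressor among the E2F factors, at 0.38 (0.277).

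Between 30 and 10 days 3 of the 64 passed, against the 1.83% of all tested probe sets. CCNI, a cyclin with little tie to division, rose from between 9.68 and 10.27 at 10 days to between 10.57 and 10.68 at 30 days (1.62-fold, limma adjusted p = 0.0190). E2F6 rose from between 4.93 and 6.04 to between 6.10 and 6.36 (a log2 difference of 0.81, adjusted p = 0.0303). Its size depended on the pseudocount, at 1.17 with 1 and 0.42 with 64 in place of 16. ANAPC13, also of the anaphase-promoting complex, fell from between 7.25 and 7.59 to between 6.24 and 6.99 (0.596-fold, adjusted p = 0.0323). None of the 3 overlapped between the ages, but they are named because they were called in this same comparison. Of all tested probe sets 3.53% were higher in all 30 day than in all 10 day lambs, and 4.31% lower.

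Of the 12 lambs left out in turn, the call held for 8 with CCNI, for 5 with E2F6 and for 6 with ANAPC13. Without both replicate 2 lambs of 30 days the adjusted p was 0.0966 for CCNI, 0.152 for E2F6 and 0.183 for ANAPC13, at differences of 0.70, 0.76 and -0.58. Leaving out 1 lamb also ended the call of CCNI for callipyge 10 day replicates 1 and 2, callipyge 30 day replicate 2 and normal 10 day replicate 1, with adjusted p values of 0.0604, 0.0799, 0.0596 and 0.0743. For E2F6 it did so for every 10 and 30 day lamb except normal 30 day replicate 1, where p was 0.0338. For ANAPC13 it did so for every 10 day lamb and for both 30 day replicate 2 lambs. Ordinary least squares ended all 3 calls (adjusted p = 0.0967, 0.0848 and 0.0991), no filter on brightness ended those of E2F6 and ANAPC13 (0.0774 and 0.0655), and no scaling or median centring ended that of ANAPC13 (0.226 and 0.0837). The 64 genes had 25 differences above 0 and 39 below, with a median of -0.09.

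The replicate 2 lambs of 30 days were the lowest 2 of the 12 for 6 of these 64 genes as well, against 3.01% of all tested probe sets: STMN1, DUT, CKS2, NUSAP1, LMNB1 and CHEK1. For 0 of the 64 were they the highest 2, against 3.07%. DUT, which keeps uracil out of DNA, stood at -0.57 between 30 and 10 days (limma adjusted p = 0.0837) and at -0.45 without both. CHEK1, the kinase of the DNA damage checkpoint, stood at -0.79 and -0.37 in the same order.

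Markers of cell types are given beside these values, and limma called none of them between 30 and 10 days. Over all tested probe sets 50.4% stood higher at 30 than at 10 days. Of 8 muscle fibre markers 6 stood lower (median -0.15), with summed levels of 15.93 to 16.02 at 10 days and 15.66 to 16.05 at 30 days. Of these, 2 had an unadjusted p under 0.05, both lower, against 8.74% of all tested probe sets. Of 5 tested immune markers 5 stood higher at 30 than at 10 days (median 0.44, 3 at an unadjusted p under 0.05 against 16.4% of all tested probe sets), and the summed level of the 6 on the array ran from 6.75 to 7.36 at 10 days and from 7.55 to 7.95 at 30 days. PTPRC, the marker of all white blood cells, was dim, between 4.05 and 5.07. Of 6 endothelial markers 6 stood higher (median 0.18), with summed levels of 10.11 to 11.03 and 9.91 to 11.08. Of 5 smooth muscle and pericyte markers 5 stood higher (median 0.08), with summed levels of 11.11 to 11.46 and 11.10 to 11.84. TAGLN, an actin-binding protein of smooth muscle, had the smallest p of all these markers, at 0.57 (limma adjusted p = 0.0739). Of 8 matrix markers 6 stood lower (median -0.17), with summed levels of 13.33 to 13.92 and 13.15 to 13.83. Above 0 stood 2 of 3 erythroid, 1 of 2 adipocyte and 0 of 2 nerve and Schwann cell markers, with medians of 0.15, 0.04 and -0.09. Their summed levels overlapped between the ages, at 7.40 to 8.38 and 7.44 to 8.33 for erythroid, 7.04 to 8.16 and 6.93 to 8.29 for adipocyte, and 6.58 to 7.48 and 6.87 to 7.28 for nerve markers.

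Markers of muscle stem cells and myoblasts had 4 tested genes with a median of -0.08. Summed levels of the 6 on the array were 10.28 to 10.56 at 10 days and 10.06 to 10.80 at 30 days. MYF5 was dim, with a mean of 4.44. Summed over all 8 cyclins the level ran from 8.64 to 8.85 at 10 days, from 8.65 to 8.89 at 20 days and from 8.28 to 8.55 at 30 days, where the 9 replication genes ran from 9.04 to 9.51, 8.83 to 9.33 and 8.43 to 9.14. The part of other cell types in the differences with age was not tested.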

How the data were processed

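RNA of 12 lambs was hybridised to 1 bovine array each. The deposited table gives a linear intensity for each probe set, made by the authors with MAS5 and GCOS, per the submitters' processing notes; version and scaling target are not given in the sources used here. The table held 24128 probe sets, 112 of them controls. Because trimmed means (2% left out at each end) differed 1.90-fold, arrays were scaled to their mean. log2 of the deposited intensity, scaled, plus 16 was used. Probe sets with a mean below the median, 5.25, were left out, and 12008 were tested. limma 3.58.1 in R 4.3.3 fitted 6 group means with a variance trend (6 residual and 6.93 prior degrees of freedom), with Benjamini-Hochberg adjustment over all tested probe sets and a threshold of 0.05. The fit was tested on simulated data. Figures were drawn with matplotlib 3.10.9.

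Genes are named by single symbols of the array annotation (13292 probe sets had 1, 86 several, 10638 none), and 65 of the 66 are in the RefSeq sheep table. Values were given for PCNA, BUB1, AURKA and AURKB, for genotype and for 30 against 10 days the 6 higher and 6 lower genes of smallest p, and for the 3 with the smallest p in other comparisons. Other genes are named by role or after their values were seen. Members, lists and tests were chosen with earlier results of these data known. Groups follow the labels, and nothing beyond "biological" replicate describes the lambs' relation. The limma p-values set each difference against the spread between replicate lambs, pooled over groups and moderated by that of the other probe sets.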

Additional observations from a re-analysis of the deposited data

Results flagged for a closer look

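Over 75 groups of 4 or 6 lambs, 4 values of named cell cycle genes lay far from their group by Dixon's test. Chance gives about 5%, so this count is near that of chance. The groups also mix ages or genotypes, which the test does not allow for. PCNA read 7.31 in callipyge 30 day replicate 2, and the next callipyge lamb read 7.88. CDK2AP1 read 8.65 in normal 30 day replicate 2, and the next normal lamb 9.26. CDC123 read 8.80 in normal 10 day replicate 2, above 8.21 in the next lamb of that age, and 7.86 in callipyge 30 day replicate 1, below 8.03. No genotype by age interaction of a member passed limma's test.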

How the results depend on the processing

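Of 741 combinations of a named member and an alternative, 732 kept direction and side of the threshold, 2 newly passed it and 7 turned sign. Most of these genes were picked by smallest p in the same data, and none was called to begin with. Alternatives of the variance, filter or threshold alone cannot turn a sign, so the 732 do not measure how robust the differences are. Both that passed were CDKN2AIPNL between the genotypes, at 0.56 with a threshold of 0.10 and at 0.65 without normal 30 day replicate 1, so that the count of called members was 1 in each and 0 to 1 over the lambs left out. Signs turned without scaling for PCNA (-0.13) and AURKB (-0.00372) between the genotypes and CDK5R1 (0.12) with age, and for single lambs left out for PCNA between the genotypes (range -0.051 to 0.21) and for AURKA (-0.010 to 0.39) and AURKB (-0.14 to 0.21) with age, AURKB also at -0.09. The cause was not tested. The median of the members with age was -0.12 with no filter, -0.15 over all probe sets, 0.20 without scaling and 0.042 with median centring; the median of all probe sets moved with the last 2, to 0.24 and 0.08. Between the genotypes it was -0.20 without scaling and -0.061 with median centring, where all probe sets moved to -0.19 and -0.05. Leaving out 1 lamb gave medians of -0.04 to 0.004 for genotype and -0.09 to -0.03 for age, and -0.54 to -0.21 for the replication genes, with 5 to 6 below 0. The replication genes as a group, and the checks of the wider list, were added after the data were seen; at the 75th percentile filter 3 of 3 lay below 0. With the replicate block 0 members were called for genotype, 30 against 10 days and age alike, and 96 and 235 probe sets for the first pair, against 106 and 220. Over all tested probe sets the deviations of same-numbered lambs had r from -0.06 to 0.11 over 15 pairs, 1 of them above 0.1, and the numbers were not taken to pair the lambs; the 2 replicate 2 lambs of 30 days were low together for the replication genes. Ordinary least squares left 3 and 15 probe sets called for the same pair. Leaving out both 30 day replicate 2 arrays, or any 1 array of a 10 day lamb, also left fewer calls, in fits with 1 lamb in a group. The small groups, of 2 lambs, and signals near the floor limit what could be called.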
